A study of Mus musculus with 6 samples.

Results

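The NF-κB family and its inhibitors were examined as 10 genes, taken by symbol from the FPKM files of 6 mRNA-seq libraries. They comprised the 5 subunit genes *Rela*, *Nfkb1*, *Nfkb2*, *Rel* and *Relb*, the 3 IκB genes *Nfkbia*, *Nfkbib* and *Nfkbie*, the feedback inhibitor *Tnfaip3* and the co-regulator *Bcl3*. All 10 were present among the 23183 symbols of each file. The libraries were made from sorted CD4+ CD8+ double positive (DP) thymocytes, a thymic stage before the choice of one co-receptor, of C57BL/6 mice at 6 weeks of age. There were 3 libraries of the genotype NSRP1f/f (WT) and 3 of the genotype NSRP1f/fCD4Cre (NSrp70-cKO), so that the floxed *Nsrp1* allele was shared by both genotypes and the Cre transgene, driven by *Cd4* regulatory sequence, was present in cKO only. No group with Cre and without the floxed allele was analysed here. The number of mice behind a library is not given in the sources used here, and if the libraries were not from separate mice, the p-values measure a technical spread.

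NF-κB transcription factors are dimers of Rel-domain proteins that wait in the cytoplasm, bound by IκB proteins or by the ankyrin repeats of their own precursors. In T cells, the antigen receptor acts through PKCθ, BCL10 and MALT1 on the IκB kinase (IKK), which marks the IκB proteins for ubiquitination and destruction and frees the dimers to enter the nucleus. Several inhibitors are themselves NF-κB targets and close a negative feedback loop. In the thymus, the pathway is known for its part in the survival and maturation of thymocytes around positive selection.

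The targeted gene was listed under its older symbol *Ccdc55*, with an FPKM (fragments per length of transcript and per depth of the library) of 20.2, 20.7 and 21.1 in WT and of 17.7, 15.8 and 15.0 in cKO, log2 fold change -0.34 (SE 0.077, adjusted p = 0.00675 from limma). With WT taken as 1 sample the adjusted p was 0.184. An FPKM value sums over the whole gene, exons outside the floxed part included. Single-fragment steps among low genes gave an estimated depth of 13.0 to 20.7 M (M, mega) fragments per library, lowest in cKO 1. WT libraries differed from each other by up to 1.61 times the counting noise and cKO libraries by 27.0 to 61.3 times. *Xist* had an FPKM of 69.8 to 72.0 in WT and of 4.07 to 5.44 in cKO, and 4 genes of chromosome Y were listed at 0 in WT and at 5.83 to 43.8 in cKO, so that sex and genotype cannot be told apart in these libraries. DP markers were present throughout, with *Cd4*, *Cd8a* and *Rag1* at a mean FPKM of 486, 685 and 973 in WT, and of 10 DP markers 8 were called higher and 1 lower in cKO. Their summed FPKM was 5336 to 5423 in WT and 7365 to 9491 in cKO. The FPKM total over all genes was also higher in cKO, at 701396 to 850548, against 521296 to 531517 in WT. Among all tested genes, 35.8% were called higher and 29.8% lower.

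Promoter windows of the 10 genes were compared, since several genes of the family are known to carry sites for NF-κB itself. RefSeq promoter windows, from 250 bases before to 50 bases after a transcription start on GRCm38.p6, were found for 8 of the 10 genes. The windows were searched on both strands for the κB consensus, a degenerate motif of 10 bases. Of these 8 genes, 6 had at least 1 match, or 75.0%, against 9.55% of all 27025 genes with a window and 12.0% of the 7923 tested genes with one. *Rela* and *Nfkbib* had none. The matched sites of these 6 genes are shown because they are a sequence feature that most of the genes with a window have, each on the strand of its gene from 5′ to 3′, with the match in capitals. Where matches overlapped, they are shown as 1 site.
*Nfkbia* (chr12:55492657-55492686, minus strand): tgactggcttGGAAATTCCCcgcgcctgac
*Nfkbie* (chr17:45555584-45555613, plus strand): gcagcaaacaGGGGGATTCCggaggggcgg
*Tnfaip3*, far site (chr10:19015516-19015545, minus strand): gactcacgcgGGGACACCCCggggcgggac
*Tnfaip3*, near site (chr10:19015403-19015432, minus strand): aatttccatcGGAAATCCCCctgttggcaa
*Rel* (chr11:23771041-23771071, minus strand): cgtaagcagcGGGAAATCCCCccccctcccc
*Nfkb2*, first start, far site (chr19:46304688-46304718, plus strand): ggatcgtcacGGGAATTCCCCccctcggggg
*Nfkb2*, first start, near site (chr19:46304716-46304745, plus strand): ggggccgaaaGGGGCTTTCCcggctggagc
*Nfkb2*, second start, far site (chr19:46305449-46305478, plus strand): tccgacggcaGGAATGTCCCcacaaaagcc
*Nfkb2*, site shared by the windows of the second and the third start (chr19:46305695-46305724, plus strand): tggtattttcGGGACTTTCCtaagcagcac
*Bcl3* (chr7:19822734-19822763, minus strand): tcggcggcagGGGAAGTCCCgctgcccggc

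The sites of *Nfkbia*, of the first *Nfkb2* start and the near site of *Tnfaip3* lay within 39 bases before the start, that of *Bcl3* directly after it. These matches are descriptions of the sequence and not measured binding. The 250 bases before the start are given for *Nfkbia* and *Nfkb2*, the member that rose and a member that fell in cKO, as both had a match close to the start.
*Nfkbia* (chr12:55492648-55492897, minus strand): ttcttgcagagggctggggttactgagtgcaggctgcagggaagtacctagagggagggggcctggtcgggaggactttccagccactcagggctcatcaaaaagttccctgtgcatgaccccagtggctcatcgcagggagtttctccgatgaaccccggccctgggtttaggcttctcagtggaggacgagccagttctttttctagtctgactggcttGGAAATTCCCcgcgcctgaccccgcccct
*Nfkb2*, first start (chr19:46304487-46304736, plus strand): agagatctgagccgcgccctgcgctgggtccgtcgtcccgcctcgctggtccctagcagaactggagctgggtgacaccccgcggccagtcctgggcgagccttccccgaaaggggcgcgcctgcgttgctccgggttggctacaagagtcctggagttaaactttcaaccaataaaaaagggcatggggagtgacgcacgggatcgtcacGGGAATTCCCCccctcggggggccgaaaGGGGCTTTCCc

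**Figure D1:**
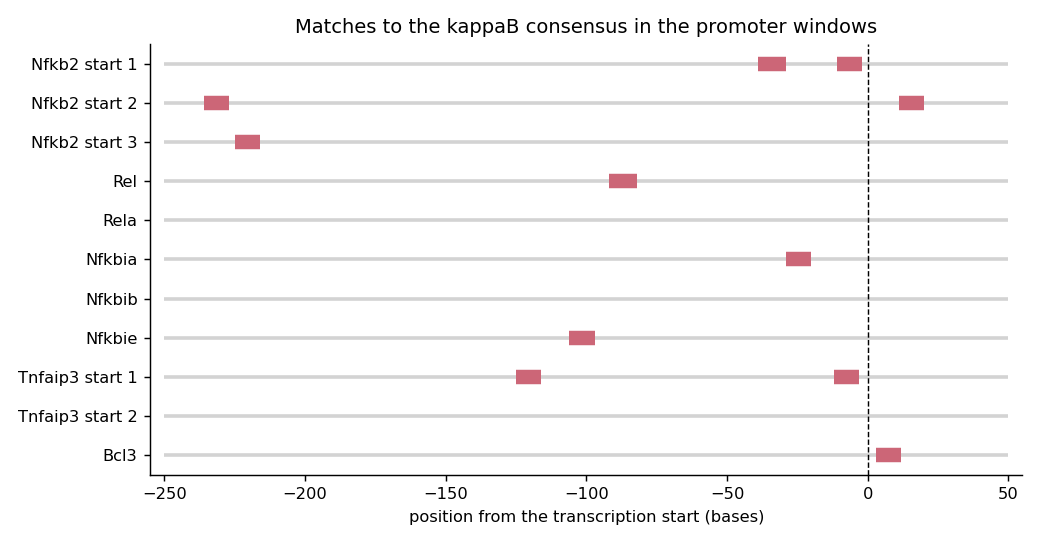
Position of the κB consensus matches (red) in the 11 RefSeq promoter windows of 8 genes, in bases from the transcription start (dashed line), 1 grey line for each window. *Rela*, *Nfkbib* and the second *Tnfaip3* start have no match, and the other windows have 1 or 2 sites.

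The comparison of NSrp70-cKO with WT DP thymocytes asked whether the transcripts of this pathway differ when *Nsrp1* is deleted in developing thymocytes. Transcripts of 4 of the 5 subunit genes were lower in cKO, *Nfkbia* was higher, and *Nfkbie* and the feedback inhibitor *Tnfaip3* were lower. Of the 10 genes, 9 passed the filter (FPKM at least 1 in at least 3 libraries), and 7 of these 9 had an adjusted p under 0.05 from limma on log2(FPKM + 1), 1 higher and 6 lower in cKO. Genes called were frequent throughout these libraries, at 65.5% of the 10326 genes tested, with 35.8% called higher and 29.8% called lower, and the 9 genes, at 77.8%, were near this background. Their median log2 fold change was -0.50, against 0.039 for all genes tested. In 8 of the 9 there was no overlap between cKO and WT, 7 with cKO below and 1 above, against 72.5% of all tested genes, 33.3% below and 39.2% above. With the WT libraries averaged into 1 sample, because their differences were little more than counting noise, 3 of the 9 genes were called, all lower, against 15.9% of all genes, 8.73% lower. Because these are bulk samples, fewer cells of a type and less RNA per cell cannot be told apart.

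**Figure D2:**
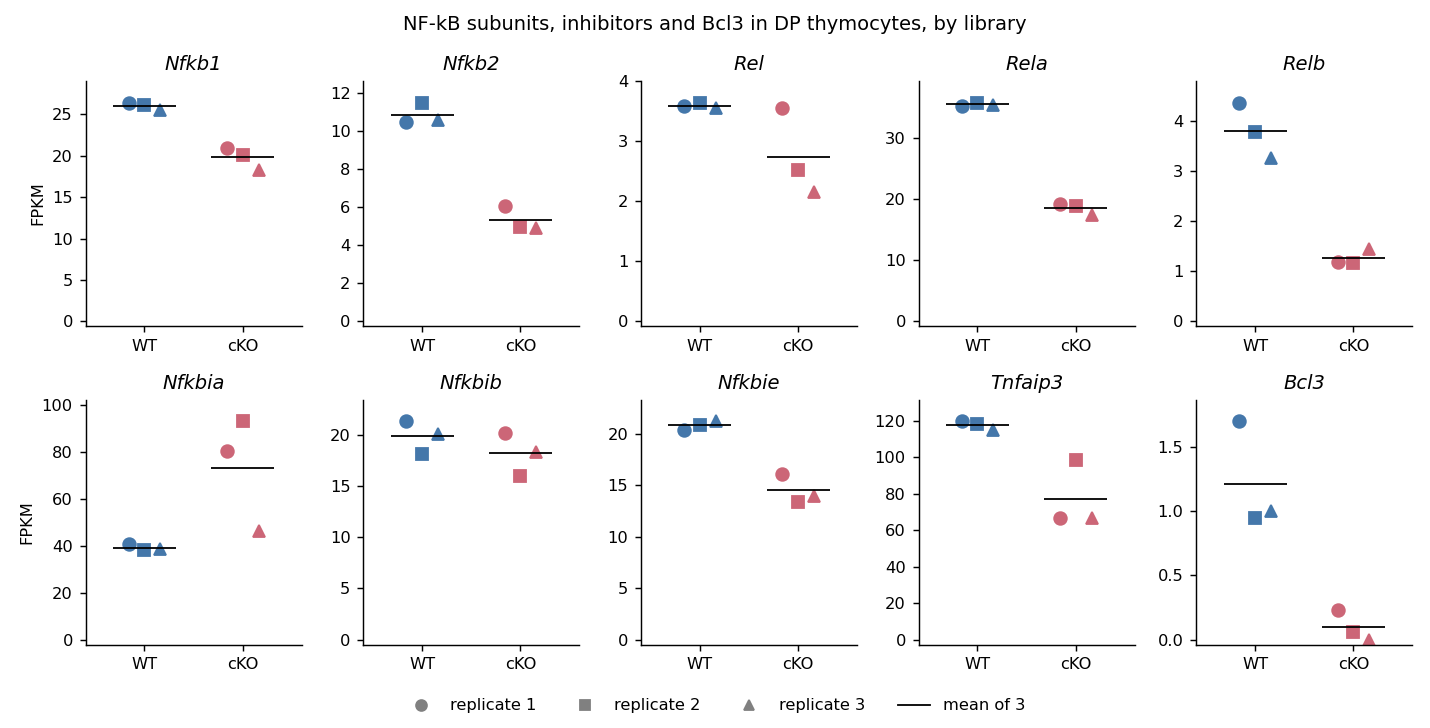
FPKM of each of the 10 genes in the 3 WT (blue) and 3 cKO (red) libraries, with the replicate as the symbol and the mean of 3 as a line, each panel on its own linear axis. All cKO values lie below the WT values except for *Nfkbia*, where they lie above, and *Nfkbib*, where the groups overlap.

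*Rela* encodes p65, the subunit with the main activation domain of the canonical pathway, and lies on chromosome 19 from 5637483 to 5648130 (GRCm38, as for all gene positions). Its FPKM was 35.2, 35.7 and 35.4 in WT and 19.1, 18.8 and 17.4 in cKO. The groups were far apart, and the spread within each was small. The mean was 35.5 ± 0.258 (SD over n = 3) in WT and 18.4 ± 0.885 (SD over n = 3) in cKO, log2 fold change -0.91 (SE 0.062, adjusted p = 0.000111 from limma). Of all tested genes, 6.23% had a log2 fold change at or below that of *Rela*. The decrease was called with WT taken as 1 sample as well (adjusted p = 0.0308).

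*Nfkb1*, on chromosome 3 from 135584655 to 135691547, encodes the p105 precursor of p50, the usual partner of p65. It had an FPKM of 26.4, 26.1 and 25.5 in WT and of 21, 20.1 and 18.3 in cKO. The cKO values lay below the WT values, but by less than those of *Rela*, with log2 fold change -0.38 (SE 0.071, adjusted p = 0.00303). This call was lost once GC content and length were adjusted for (-0.16, adjusted p = 0.0628) and with WT taken as 1 sample (adjusted p = 0.140).

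The non-canonical pathway uses p52, made from the p100 precursor of *Nfkb2*, together with RelB. *Nfkb2*, on chromosome 19 from 46304320 to 46312385, showed FPKM values of 10.5, 11.5 and 10.6 in WT and of 6.07, 4.97 and 4.89 in cKO. The cKO values were close together and far below the WT values, and the log2 fold change was -0.92 (SE 0.093, adjusted p = 0.00030). *Relb*, on chromosome 7 from 19606217 to 19629438, showed FPKM values of 4.36, 3.78 and 3.26 in WT and of 1.18, 1.16 and 1.44 in cKO. It had the most negative log2 fold change of the 9 tested genes, -1.08 (SE 0.111, adjusted p = 0.00031), and its mean was 3.02-fold lower in cKO. Of all tested genes, 3.46% had a log2 fold change as low as that of *Relb*, and 6.14% as low as that of *Nfkb2*. The cKO values of *Relb* rest on an estimated 31, 48 and 50 fragments, those of WT on 181, 157 and 135. *Nfkb2* and *Relb* kept an adjusted p under 0.05 with WT taken as 1 sample (0.0350 and 0.0311). *Nfkb2* overlaps *Psd* on the opposite strand, and the strand setting of the authors' counting is not given.

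*Rel*, on chromosome 11 from 23736847 to 23770970, encodes c-Rel, the subunit tied most closely to lymphocytes. Its FPKM was 3.58, 3.64 and 3.56 in WT and 3.55, 2.52 and 2.16 in cKO. The cKO 1 library lay at the edge of the WT range, and the other two lay below it. The log2 fold change was -0.31 with a 95% interval of -0.64 to 0.012 (adjusted p = 0.0806), so no change was called. Without cKO 1, the log2 fold change of *Rel* was -0.47 (adjusted p = 0.00386).

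Summed over the 5 subunit genes, the FPKM was 78.3 to 80.7 in the WT libraries and 44.2 to 50.9 in the cKO libraries. The make-up of this sum differed as well. *Rela* held 44.0% to 45.2% of it in WT and 37.5% to 39.5% in cKO, while *Nfkb1* held 32.3% to 32.9% and 41.3% to 42.3%. The ratio of *Nfkb1* to *Rela* was thus 0.720 to 0.748 in WT and 1.05 to 1.1 in cKO, with no overlap between the genotypes. *Relb* held 4.16% to 5.45% of the sum in WT and 2.31% to 3.26% in cKO.

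*Nfkbia* encodes IκBα, the most rapidly degraded and resynthesized of the inhibitors and itself a classical NF-κB target. It lies on chromosome 12 from 55489410 to 55492647. Its FPKM was 40.7, 38.3 and 38.8 in WT and 80.3, 93.0 and 46.3 in cKO. All cKO values lay above the WT values, with cKO 3 close to them and the other two far above. The mean was 39.2 ± 1.29 (SD over n = 3) in WT and 73.2 ± 24.2 (SD over n = 3) in cKO, a 1.87-fold increase, with log2 fold change 0.82 (SE 0.234, adjusted p = 0.0174). Of all tested genes, 8.05% had a log2 fold change at or above it. The increase was not called without WT 2 (adjusted p = 0.0504), without cKO 1 (adjusted p = 0.0611), with WT taken as 1 sample (adjusted p = 0.143) or once GC content and length were adjusted for (0.63, adjusted p = 0.0830). Without cKO 3 the log2 fold change was 1.12 (adjusted p = 0.000787).

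*Nfkbie*, on chromosome 17 from 45555703 to 45563169, encodes IκBε and had an FPKM of 20.4, 20.8 and 21.2 in WT and of 16.1, 13.4 and 14.0 in cKO. All cKO values were lower, with log2 fold change -0.50 (SE 0.083, adjusted p = 0.00184), and the call was lost with WT taken as 1 sample (adjusted p = 0.0904). The log2 fold change of *Nfkbie* was -0.26 (adjusted p = 0.0218) with GC content and length adjusted for. *Nfkbib*, on chromosome 7 from 28758251 to 28767512, encodes IκBβ and had an FPKM of 21.3, 18.1 and 20.1 in WT and of 20.2, 16.0 and 18.3 in cKO. The groups overlapped, and the log2 fold change of -0.12 had a 95% interval of -0.37 to 0.13 (adjusted p = 0.335). The *Nfkbib* locus overlaps *Sirt2* on the opposite strand.

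The 3 IκB genes together had a summed FPKM of 77.1 to 82.4 in WT and of 117, 122 and 78.5 in cKO 1, 2 and 3. *Nfkbia* made up 48.4% to 49.6% of this sum in WT and 68.8%, 76.0% and 58.9% in cKO 1, 2 and 3. Divided by the sum of the 5 subunit genes, the IκB sum was 0.955 to 1.03 in WT and 1.78 to 2.57 in cKO. The groups were apart in this ratio also for cKO 3, where the IκB sum itself lay within the WT range. The sums are not scaled to the FPKM total of a library, which was 521296 to 531517 in WT. In cKO 1, 2 and 3 the total was 791104, 701396 and 850548. *Nfkbia* over *Rela* was 1.07 to 1.15 in WT and 2.65 to 4.95 in cKO. A single scaling factor per library leaves these mRNA ratios as they are. Adjusting for GC content and length does not, and *Nfkbia* and *Rela* then differed between genotypes by 0.63 and -0.43 on the log2 scale, against 0.82 and -0.91 without it, and *Nfkb1* by -0.16, against -0.38.

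**Figure D3:**
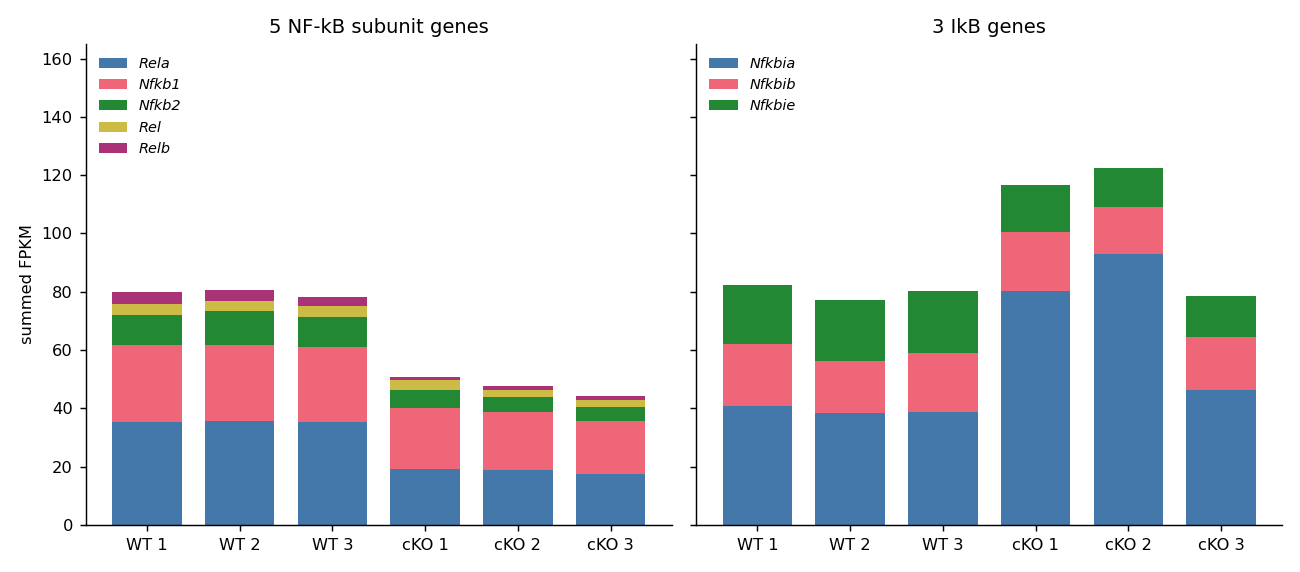
Summed FPKM of the 5 NF-κB subunit genes (left) and the 3 IκB genes (right) in each library, stacked by gene, both on 1 linear axis from 0. The subunit sum is lower in every cKO library, while the IκB sum is higher in cKO 1 and 2 through *Nfkbia* and at the WT level in cKO 3. The sums are not scaled to the FPKM total, which was higher in cKO.

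*Tnfaip3* encodes A20, a ubiquitin-editing enzyme that shuts off signalling above IKK, and lies on chromosome 10 from 19000910 to 19015657. By mean FPKM it was the highest of the 10 genes in both genotypes, though below *Nfkbia* in cKO 1. It had an FPKM of 119.6, 118 and 115 in WT and of 66.4, 98.6 and 66.5 in cKO. All cKO values were lower, with cKO 2 well above the other two. The log2 fold change was -0.63 (SE 0.15, adjusted p = 0.00838). It was -0.81 without cKO 2 and -0.54 without either cKO 1 or cKO 3, and with WT taken as 1 sample it was not called (adjusted p = 0.125). The cKO 2 library was thus the highest of cKO for both *Tnfaip3* and *Nfkbia*.

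*Bcl3* encodes an atypical, nuclear IκB protein that binds p50 and p52 and can act as a co-activator. It lies on chromosome 7 from 19808462 to 19822770. Its FPKM was 1.70, 0.948 and 1.00 in WT and 0.233, 0.0594 and 0 in cKO, so that it failed the filter and had no test. These values rest on an estimated 58, 32 and 34 fragments in WT and on 5, 2 and 0 in cKO. The 7 fragments of cKO have an exact Poisson 95% interval of 2.81 to 14.4, for counting error only, whereas 102.3 fragments would be seen in cKO at the mean FPKM of WT. Without the filter, the log2 fold change of *Bcl3* on the log2(FPKM + 1) scale was -1.0 (adjusted p = 0.00327 from limma).

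By mean FPKM, the order in WT was *Tnfaip3*, *Nfkbia*, *Rela*, *Nfkb1*, *Nfkbie*, *Nfkbib*, *Nfkb2*, *Relb*, *Rel* and *Bcl3*. FPKM is per length of transcript, so levels of different genes can be set side by side, but GC content is not adjusted for. With GC content and length adjusted for, the log2 fold change of *Rela* moved from -0.91 to -0.43. The orders and percentiles given here hold for unadjusted FPKM. In WT, the ranges of neighbours overlapped for *Nfkbie* with *Nfkbib* and for *Relb* with *Rel*, and for no other neighbours. In cKO the order was *Tnfaip3*, *Nfkbia*, *Nfkb1*, *Rela*, *Nfkbib*, *Nfkbie*, *Nfkb2*, *Rel*, *Relb* and *Bcl3*. There the ranges of *Tnfaip3* and *Nfkbia* overlapped, as did those of *Nfkb1* and *Rela*, *Rela* and *Nfkbib*, and *Nfkbib* and *Nfkbie*. Among all tested genes, *Rela* lay on average at the 76.1 percentile of levels in WT and at 56.9 in cKO, and *Nfkbia* at 78.4 and 85.6.

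Under equal FPKM totals, that is with every library multiplied to the same sum, the all-gene median shifted from 0.039 to -0.45 (log2). *Rela*, *Nfkb2* and *Relb* were then at -1.45, -1.41 and -1.46, and *Nfkbia* at 0.27 was above the median of all genes but not called (adjusted p = 0.408). Under that scaling 8 of the 9 tested members were called, all lower, against 68.6% of all genes called, 59.9% lower and 8.74% higher. Adjusting for GC content and length brought *Rela*, *Nfkb2* and *Relb* to -0.43, -0.39 and -0.65, all 3 with an adjusted p under 0.05. With this adjustment 5 of the 9 were called, all lower, where 56.6% of all genes were called and 26.7% called lower, and *Nfkbib* was at 0.22 (adjusted p = 0.0846). Transcripts of these genes are rich in G and C, at 59.4% for *Rela*, 59.3% for *Nfkb2* and 61.1% for *Relb*.

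**Figure D4:**
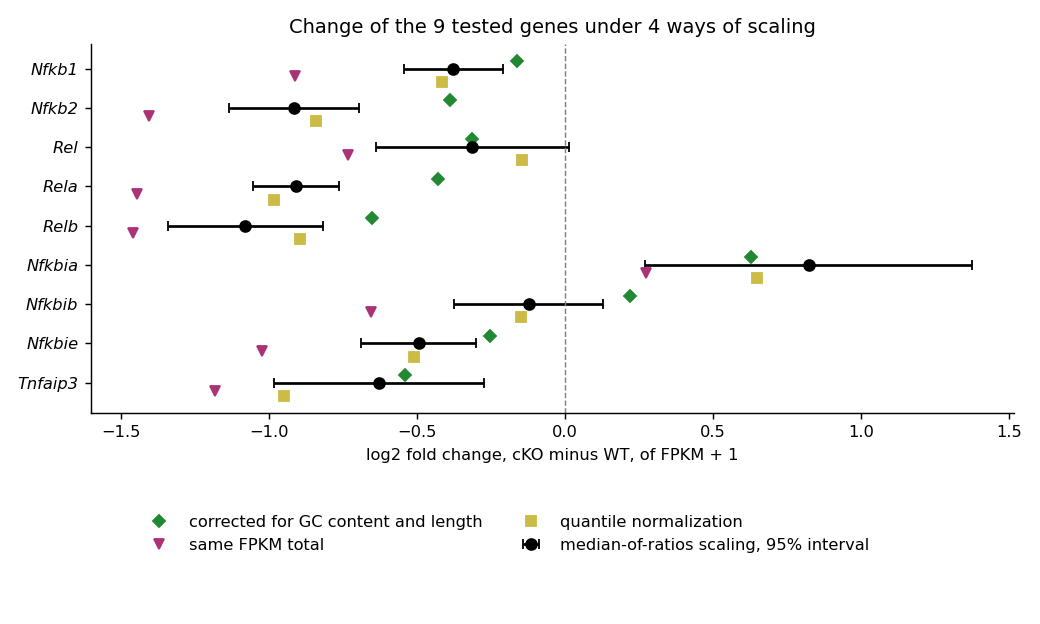
Log2 fold change (cKO minus WT, of FPKM + 1) of the 9 tested genes with its 95% interval (black), and the same value under 3 other normalizations, of which 1 adjusts for GC content and length. *Nfkbia* is above 0 and *Rela*, *Nfkb1*, *Nfkb2*, *Rel*, *Relb*, *Nfkbie* and *Tnfaip3* are below 0 under all 4, while *Nfkbib* lies on either side.

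The rest of the pathway was followed through 8 lists with 84 genes, of which 72 were tested. Of these 72, 42 were called, or 58.3% against 65.5% of all tested genes, 13 higher and 29 lower in cKO. Lower genes made up 40.3% of the tested pathway genes, against 29.8% of all tested genes, and their median log2 fold change was -0.20, against 0.039 for all genes. With WT taken as 1 sample, fewer genes were called, in the lists as among all tested genes, and no direction was read from those calls. Most of the called pathway genes named below lost their call in that setting. Under equal FPKM totals 1 gene was called higher and 62 lower, against 8.74% and 59.9% of all tested genes. The counts of single lists below stand against all tested genes, with 35.8% called higher and 29.8% lower.

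Of 13 genes of receptors that feed into NF-κB, most of them of the TNF receptor family, 7 were tested and 4 were called, all lower. Of these, *Tnfrsf9* passed the filter only through the WT libraries, with an FPKM of 0.55 to 0.69 in cKO, and *Tnfrsf4* was at 0.409 in cKO 1. *Cd28*, the co-stimulatory receptor, had an FPKM of 88.7 to 89.7 in WT and of 71.2 to 73.4 in cKO (log2 fold change -0.29, adjusted p = 0.00410, and -0.45 with GC content and length adjusted for). *Tnfrsf9*, which encodes 4-1BB, had a mean of 2.20 in WT and of 0.617 ± 0.0703 (SD over n = 3) in cKO, and *Tnfrsf4*, which encodes OX40, of 4.28 and 1.63 ± 1.33 (SD over n = 3). *Tnfrsf4* was not called without WT 1, WT 2 or cKO 3. *Tnfrsf1a*, a receptor of TNF, had a log2 fold change of -0.28 (adjusted p = 0.0142), which was not called without WT 1, without WT 2 or with GC content and length adjusted for (-0.069, adjusted p = 0.384). *Cd27*, at a mean of 278 in WT and 293 in cKO, was not called (adjusted p = 0.458). *Ltbr*, *Cd40*, *Il1r1*, *Il18r1*, *Tlr4* and *Tnfrsf13c* were below the filter.

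In the route from the antigen receptor, 3 of 8 genes were called, 2 higher and 1 lower, with a median log2 fold change of -0.051. *Prkcq* and *Bcl10* had mean FPKM values of 55.3 and 34.2 in WT and of 53.4 and 33.4 in cKO, with overlapping groups. *Malt1*, the paracaspase of the complex, had a mean of 7.02 in WT and of 5.37 ± 1.1 (SD over n = 3) in cKO (adjusted p = 0.0351), and was not called when WT 1, WT 2, WT 3, cKO 1 or cKO 3 was left out. *Traf6* and *Casp8* were higher, with log2 fold changes of 0.27 and 0.28, and both turned negative (-0.28 and -0.27) under equal FPKM totals, where 0 of the 8 genes were called higher and all 8 lower. *Casp8* was also not called when any WT library was left out, or with GC content and length adjusted for (0.10, adjusted p = 0.329).

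Among 10 IKK-level kinases and adaptors, 2 were called higher and 4 lower, but 0 higher and all 10 lower under equal FPKM totals. *Map3k14* encodes NIK, the kinase that starts the non-canonical pathway. Its FPKM was 6.80, 6.51 and 6.54 in WT and 2.38, 3.54 and 2.63 in cKO, log2 fold change -1.0 (SE 0.115, adjusted p = 0.000453). All cKO values lay far below the WT values, as for *Nfkb2* and *Relb* of the same pathway. With GC content and length adjusted for, the log2 fold change of *Map3k14* was -0.39 (adjusted p = 0.0344). *Ikbke*, an IKK-related kinase, fell from a mean of 27.1 to 14.5 ± 3.96 (SD over n = 3). The catalytic subunit gene *Ikbkb* had a log2 fold change of -0.32 (adjusted p = 0.0262), which was not called when any WT library was left out or with GC content and length adjusted for (-0.14, adjusted p = 0.247). That of *Tab2* was -0.31. *Chuk*, which encodes IKKα, had a mean of 21.5 in WT and of 18.6 in cKO and was not called (adjusted p = 0.152). *Ikbkg*, the X-linked gene of the regulatory subunit NEMO, was higher, with 9.52 to 9.76 in WT and 11 to 11.7 in cKO (log2 fold change 0.22, adjusted p = 0.0177), though lower, like the rest of the list, under equal FPKM totals.

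Of 9 TRAF, cIAP and receptor-adaptor genes, 2 were called higher and 4 lower. *Traf3*, which holds NIK in check, fell from a mean of 5.64 to 3.06 ± 0.486 (SD over n = 3), and *Traf1*, itself an NF-κB target, from 9.69 to 4.71 ± 1.24 (SD over n = 3), with log2 fold changes of -0.72 and -0.93. *Tradd* had a log2 fold change of -0.40. With GC content and length adjusted for, *Traf3* was at -0.37 and *Tradd* at -0.22, both still called. *Ripk1* was higher, at 8.17 and 11.4 ± 1.02 (SD over n = 3), but its log2 fold change of 0.43 was -0.084 under equal FPKM totals.

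Ubiquitin editors of the pathway were called in 8 of 12 cases, 2 higher and 6 lower. *Tnip1* and *Tnip2* encode ABIN proteins that bind A20. On the log2 scale they fell by 0.62 (adjusted p = 0.000335) and by 0.88 (adjusted p = 0.00030), with an FPKM of 35.4 to 37.1 and 4.59 to 5.53 in WT and of 22.0 to 24.0 and 2.08 to 2.33 in cKO. The call of *Tnip1* was lost once GC content and length were adjusted for (-0.17, adjusted p = 0.0580). *Rnf31*, which encodes HOIP, the catalytic subunit of the linear ubiquitin ligase, fell from a mean of 17.7 to 9.04 ± 1.64 (SD over n = 3), and its partners *Rbck1* and *Sharpin* fell by 0.37 (adjusted p = 0.00226) and 0.60 (adjusted p = 0.0106) on the log2 scale. *Rnf31* moved from -0.91 to -0.37 with GC content and length adjusted for. The opposing deubiquitinases *Otulin* and *Cyld* were not called (adjusted p = 0.881 and 0.101). *Tax1bp1*, an adaptor of A20, went the other way, from 99.5 to 152 ± 5.48 (SD over n = 3), with a log2 fold change of 0.60 that was 0.044 under equal FPKM totals and 0.36 with GC content and length adjusted for.

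Of the 5 genes of the ubiquitin ligase that destroys IκB, 2 were called higher and 0 lower, *Rbx1* from 58.2 to 89.2 ± 12.7 (SD over n = 3) and *Cul1* from 29.9 to 36.6 ± 3.08 (SD over n = 3). Under equal FPKM totals, 0 of the 5 were called higher and 2 were called lower, and *Cul1* was at -0.27. The call of *Cul1* was also lost without WT 1, without WT 2, under quantile normalization (adjusted p = 0.0822) and with GC content and length adjusted for (0.082, adjusted p = 0.292), where *Rbx1* was at 0.24 (adjusted p = 0.0353), against 0.60 without it. The receptors of phosphorylated IκB, *Btrc* and *Fbxw11*, were not called (adjusted p = 0.281 and 0.182). Among 7 further IκB-related genes, 6 were tested, 1 was called higher and 2 lower. *Commd1*, which promotes the ubiquitination of p65, rose from 63.2 to 125 ± 19.8 (SD over n = 3), a log2 fold change of 0.96. *Nfkbid*, which encodes the nuclear IκBNS, had 10.8 to 11 in WT and 4.75, 8.72 and 4.23 in cKO, a call lost with GC content and length adjusted for (-0.58, adjusted p = 0.0601). *Nkiras1* fell from 4.16 to 2.61 ± 0.0770 (SD over n = 3).

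Of 20 genes known as NF-κB targets, 15 were tested, 2 were called higher and 8 lower, with a median log2 fold change of -0.40. Calls were as frequent in the whole set of 10326 tested genes, at 65.5%, with 35.8% higher and 29.8% lower. The targets differed from this background in the direction of these calls, but the list was chosen with earlier results known and the difference was not tested. Among the targets called lower, *Il7r*, *Cd69* and *Il2ra* are also cell type markers used below. *Junb*, an AP-1 gene, had an FPKM of 153, 160.1 and 153 in WT and of 45.3, 79.5 and 46.0 in cKO. *Gadd45b*, a stress-response gene, had 10.6 to 12.4 in WT and 6.11, 8.52 and 3.98 in cKO. *Lta*, the gene of lymphotoxin α, fell from 2.38 to 1.00 ± 0.211 (SD over n = 3), and *Il7r*, the IL-7 receptor chain, from 5.92 to 1.17 ± 0.0959 (SD over n = 3). The 2 higher genes were the anti-apoptotic *Bcl2l1*, at 0.26 on the log2 scale (adjusted p = 0.0438), and *Sod2*, at 0.43 (adjusted p = 0.00352). Under equal FPKM totals, 0 targets were called higher and 12 lower. With GC content and length adjusted for, 2 were called higher and 8 lower. Of the 16 targets with a promoter window, 6, or 37.5%, had a match to the κB consensus.

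**Figure D5:**
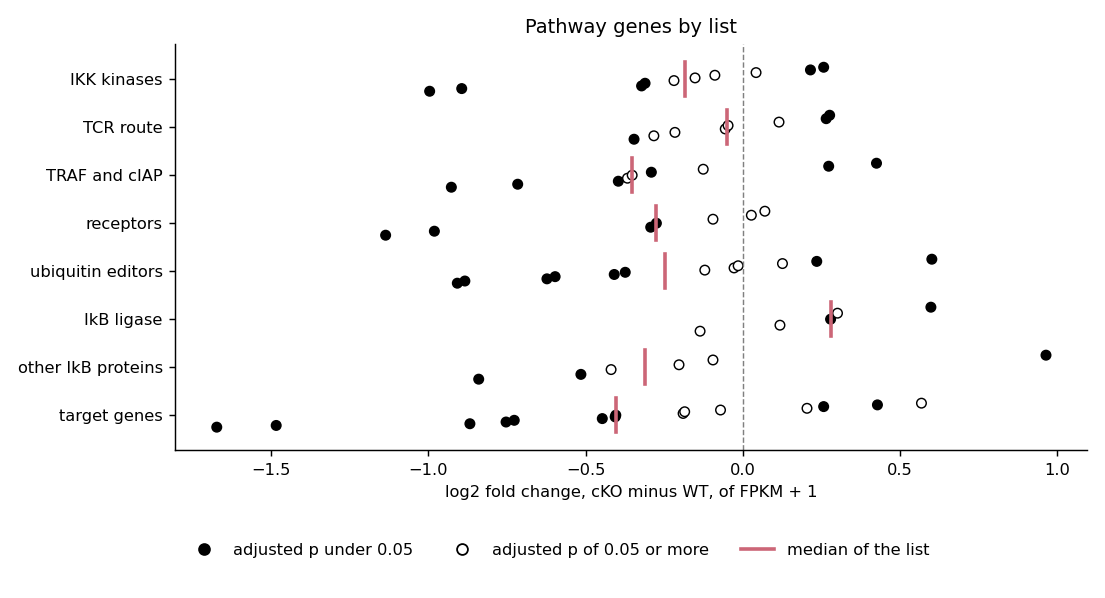
Log2 fold change (cKO minus WT, of FPKM + 1) of the 72 tested pathway genes by list, filled where the adjusted p was under 0.05, with the median of each list as a red bar. The medians run from -0.40 for the target genes to 0.28 for the IκB ligase.

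Over the 6 libraries, the pathway genes most like *Rela* in log2(FPKM + 1) were *Il7r*, *Tnfrsf9* and *Cd28*, with Pearson's r of 0.999, 0.987 and 0.986. Those most like *Nfkbia* were *Traf6*, *Ikbkg* and *Itch*, with 0.897, 0.881 and 0.798. These values describe 2 groups of 3 libraries and carry no test, and 0.136% of all tested genes were at least as like *Rela* as *Il7r*, and 5.84% as *Cd28*.

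Most markers of mature single positive cells and of DP thymocytes that received a signal were lower in cKO, as were most subunit genes. Calls among all tested genes were 35.8% higher and 29.8% lower. The summed levels below are not scaled to the FPKM total, which was higher in cKO. Of 12 markers of mature single positive cells, 9 were called lower and 2 higher in cKO, with *Ccr7*, *S1pr1* and *Klf2* at a mean FPKM of 15.5, 4.50 and 18.2 in WT and of 1.69, 0.179 and 4.92 in cKO. *Il7r*, the pathway gene most like *Rela*, is in this list as well. The summed level of the 12 was 422 to 436 in WT and 376 to 437 in cKO. Of 7 genes of DP thymocytes that received an antigen receptor signal, 6 were called lower and 0 higher, among them *Egr1* and *Nr4a1*, and their summed level was 389.7 to 399.6 in WT and 258 to 291 in cKO. Of the regulatory T cell markers, 2 of the 4 tested were called lower and their summed level was 59.7 to 61.3 in WT and 45.5 to 49.9 in cKO. Those called were *Ctla4*, at a mean of 14.3 in WT and 4.47 in cKO, and *Tnfrsf4*. *Ikzf2* and *Tnfrsf18* were not called, at 16.1 and 25.7 in WT and 15.8 and 26.3 in cKO. *Foxp3*, at a mean of 0.330 in WT and 0.0450 in cKO, was below the filter and had no test. The part of these cells in the lower subunit, *Bcl3* and target transcripts was not tested. All 5 dendritic cell markers were under an FPKM of 1 in every library, as were 4 of 5 B cell markers and 4 of 5 epithelial markers, of which *Foxn1* and *Krt5* were at 0. The summed level of the DN thymocyte markers was 13.5 to 14.3 in WT and 5.58 to 6.48 in cKO, that of the myeloid markers 6.06 to 7.87 and 5.04 to 7.21. It was higher in cKO for the NK cell markers, at 59.6 to 64.9 and 79.6 to 108, for the erythroid markers, at 0.588 to 1.06 and 3.49 to 10.9, and for the B cell markers, at 22.8 to 24.2 and 26.6 to 39.4. Each of these sums was mostly that of a single gene. These genes were *Gzma* (mean 55.2 in WT and 90.3 in cKO), *Hba-a1* (0.659 and 7.95) and *Cd79b* (22.4 and 33.0). The other tested NK cell marker, *Nkg7*, was called lower, at 5.82 in WT and 2.98 in cKO.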

How the data were processed

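DP thymocytes had been sorted and poly(A)-enriched directional libraries sequenced as paired ends. Per the study's methods and the labels, the authors aligned reads with TopHat to mm10 and deposited FPKM values per gene from Cufflinks, 1 file per library. Versions, annotation and strand setting are not given in the sources used here. The study tested gene counts. Because the values used here are FPKM, limma 3.58.1 in R 4.3.3 (linear model with a variance trend) was used on log2(FPKM + 1) after median-of-ratios scaling, for genes with an FPKM of 1 or more in 3 or more libraries, with Benjamini-Hochberg adjustment over all 10326. The pseudocount of 1 understates fold changes of low genes. Samples were grouped by the genotype label. Depth was estimated from fragment steps at a fragment length of 200. Positions are from GENCODE M21 and promoters from RefSeq. The limma step was tested on simulated data. The members, gene lists and 11 marker lists were chosen with earlier results of these data known. The text names all members, up to 4 genes per pathway list with the largest change among called, non-overlapping genes, and the 3 pathway genes most correlated with *Rela* and *Nfkbia*. Other genes were chosen after their values were seen. Some genes of the lists are not reported here by name.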

Additional observations from a re-analysis of the deposited data

How the results depend on the processing

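With WT taken as 1 sample, 3 members were called, 0 higher and 3 lower, with 1645 genes in all (744 higher, 901 lower), 8 pathway genes (1 higher, 7 lower), and the targeted gene was not called (-0.34, adjusted p = 0.184 from limma). Under equal FPKM totals, 0 members were higher, 903 genes were higher and 6182 lower, 1 pathway gene was higher and 62 lower, and the log2 fold changes of *Casp8*, *Traf6*, *Ripk1* and *Cul1* turned to -0.27, -0.28, -0.084 and -0.27. With GC content and length adjusted for 0 members were higher and *Nfkbib* turned to 0.22. The cause was not tested. For the targeted gene, the log2 fold change was -0.87 under equal FPKM totals and -0.56 with GC content and length adjusted for, against -0.34 without either. Leaving out 1 library at a time gave 6 to 7 members called (0 to 1 higher, 6 to 7 lower), 5585 to 7667 genes (3073 to 4113 higher, 2504 to 3554 lower), 31 to 50 pathway genes (8 to 14 higher, 23 to 36 lower) and -0.41 to -0.29 for the targeted gene. Pathway genes called higher numbered 8 without WT 1, without WT 2 or without WT 3. Same-numbered libraries were not paired, as their deviations correlated at -0.022 to 0.039 and WT 1 and WT 3 correlated best with another number. With the replicate block, 7 members and 6467 genes were called. With an FPKM of 1 or more required in all 6 libraries, 7 members (1 higher, 6 lower) and 6321 genes (3628 higher, 2693 lower) were called. The pathway genes called were then 38 (13 higher, 25 lower), and *Tnfrsf4*, *Tnfrsf9* and *Lta* were not tested. Depth, at an estimated 13.0 M (M, mega) fragments in cKO 1, limits *Bcl3* and *Relb* most.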
